A study of Oryza sativa with 6 samples.

Results

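In 5-week-old rice seedlings, 44 loci were close to silent in wild type, under 0.5 FPKM, and stood at 1 FPKM or more both in plants over-expressing OsRDR3 and in plants labelled as OsRDR3 knock-down. FPKM is a fragment count divided by transcript length and by the number of mapped fragments. The loci were chosen by these FPKM values among 1714 loci that the authors listed in both of their tables. Each table lists only loci with p of at most 0.05 in the authors' Cuffdiff test. The 1714 loci had thus already passed that limit in both comparisons and are not all measured loci. The strongly raised polymerase locus BGIOSGA002194 was left out. The levels and fold changes of the 44 loci are therefore a description. Annotation, span and position were not part of the rule. Transcript length, which differs from genomic span where there are introns, does enter the FPKM. Whether length bears on which loci were listed was not tested. The loci had mixed annotations, with 7 placed in a cell wall and carbohydrate group and 4 carrying transcription factor terms, and 4 had no annotation at all. They lay on all 12 chromosomes, with 1 pair closer than 100 kb.

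The plants were rice of the indica cultivar Pusa Basmati 1 (PB1). The 6 RNA-seq libraries formed 3 groups of 2, namely wild type (WT), an over-expression group (OE) and a group labelled knock-down (KD). The labels name the transgenic line of each library only by these codes, and the promoter, the number of independent transformants and the origin of the replicates, from separate plants or not, are not stated there. Each table holds 1 pooled FPKM per group and locus, so no spread between replicates can be given, the depth per library is unknown, and the authors' p-values measure at most how these libraries vary, and that variation may be technical.

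OsRDR3 is an RNA-dependent RNA polymerase. Plant enzymes of this family copy single-stranded RNA into double-stranded RNA, which Dicer-like proteins cut into small RNAs. Small RNAs guide Argonaute proteins to matching transcripts or to matching DNA, and this pathway is known for keeping transposons, viruses and some genes silent.

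Several facts of the series touch every value below. The polymerase locus BGIOSGA002194, if it is the target, was higher than wild type in both lines, at 69.5 against 0.190 FPKM in the KD-labelled libraries and at 58.7 against 0.198 FPKM in over-expression, so the first group goes against its label. The tables do not separate fragments of the native gene from fragments of a transgene, so these levels do not show the activity of the native gene. That group is called the KD-labelled libraries throughout. Leaf markers used to check the tissue were listed in both tables. Only loci with p of at most 0.05 in the authors' Cuffdiff test are listed, so every listed marker differs from wild type by selection. The 17 chlorophyll a-b binding loci of the KD table ran from 1.73 to 5074 FPKM in wild type, against 0.371 to 1276 FPKM in the KD-labelled libraries, and the 4 loci of the small subunit of Rubisco from 878 to 4307 FPKM against 471 to 1193 FPKM. In the over-expression table the 10 chlorophyll a-b binding loci ran from 7.34 to 1084 FPKM in wild type, against 4.32 to 637 FPKM in the line, and the 4 Rubisco loci from 2.06 to 4491 FPKM against 16.0 to 2432 FPKM. All markers were matched by words in the protein name, which do not establish the tissue of a single locus. Of the words set for floral and root tissue, the KD table lists 2 MADS-box loci. These ran from 6.18 to 16.5 FPKM in wild type and from 0.520 to 9.72 FPKM in the KD-labelled libraries. It lists 1 expansin, at 12.9 and 19.0 FPKM, and 2 nicotianamine synthase loci, at 0.614 to 0.618 FPKM in wild type and 1.61 to 4.02 FPKM in the KD-labelled libraries. The over-expression table lists no locus matched by these floral and root words, which does not show that such loci were absent. The part of such differences in the levels of the 44 loci was not tested. Both tables use the same wild-type libraries. Wild-type FPKM was 1.04 times as high in the over-expression table (range 1.04 to 1.05 over 1714 loci), so the tables differ in scale and share any error in wild type.

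The rule kept 44 of the 98 loci listed in both tables with wild type under 0.5 FPKM in each. All 98 were above wild type in both lines, a direction that the choice of loci this low largely fixes. Besides the polymerase and the 44 loci, 40 reached 1 FPKM in over-expression but not in the KD-labelled libraries, 7 did the reverse, and 6 reached it in neither. Among the loci just inside the wild-type limit were BGIOSGA020656 and BGIOSGA002745, at 0.496 and 0.493 FPKM in the over-expression table. Just outside it were BGIOSGA020292 and BGIOSGA021180, at 0.503 and 0.505 FPKM. In the KD-labelled libraries the members BGIOSGA017616 and BGIOSGA002745 had 1.01 and 1.03 FPKM, and BGIOSGA029184 and BGIOSGA004124 fell short with 0.984 and 0.960 FPKM. In over-expression the members BGIOSGA023736 and BGIOSGA022360 had 1.01 and 1.03 FPKM, and BGIOSGA004591 and BGIOSGA009498 fell short with 0.989 and 0.970 FPKM. The limits cut through a continuous range of levels, and wild-type levels of the members ran from 0.149 to 0.475 FPKM in the KD table and from 0.155 to 0.496 FPKM in the over-expression table.

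Levels in the lines were mostly modest. In the KD-labelled libraries the lowest, median and highest of the 44 were 1.01, 1.65 and 17.1 FPKM, against a wild-type median of 0.383 FPKM. In over-expression they were 1.01, 2.06 and 9.49 FPKM, against a wild-type median of 0.399 FPKM. The rule makes the groups non-overlapping, so this separation is no finding. At least 5 FPKM was reached by 3 loci in the KD-labelled libraries and by 7 in over-expression. The median log2 fold change was 2.33 and 2.27 in the authors' deposited tables, against -0.58 and 0.67 for all loci listed, and with a pseudocount of 1 the medians of the 44 were 0.99 and 1.10.

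The authors' Cuffdiff test, at q under 0.05, called 28 of the 44 loci higher in the KD-labelled libraries, or 63.6%. In that comparison 54.3% of the listed loci were called in either direction and 17.6% were called higher, while 50.5% of the loci listed as higher were called. In over-expression 24 of the 44 were called higher, or 54.5%, beside 51.5% of listed loci in either direction, 37.9% called higher and 55.8% of the loci listed as higher. The rule used both contrasts, so nothing is read from these shares or from the counts called per annotation group below. All 44 loci were above wild type in both lines by the rule, also where they were not called. Below, the word rose is kept for a locus called in that table. In all, 16 loci were called in both tables, 12 only in the KD-labelled libraries, 8 only in over-expression and 8 in neither; the difference between being called in one table and not in the other was not tested.

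**Figure D1:**
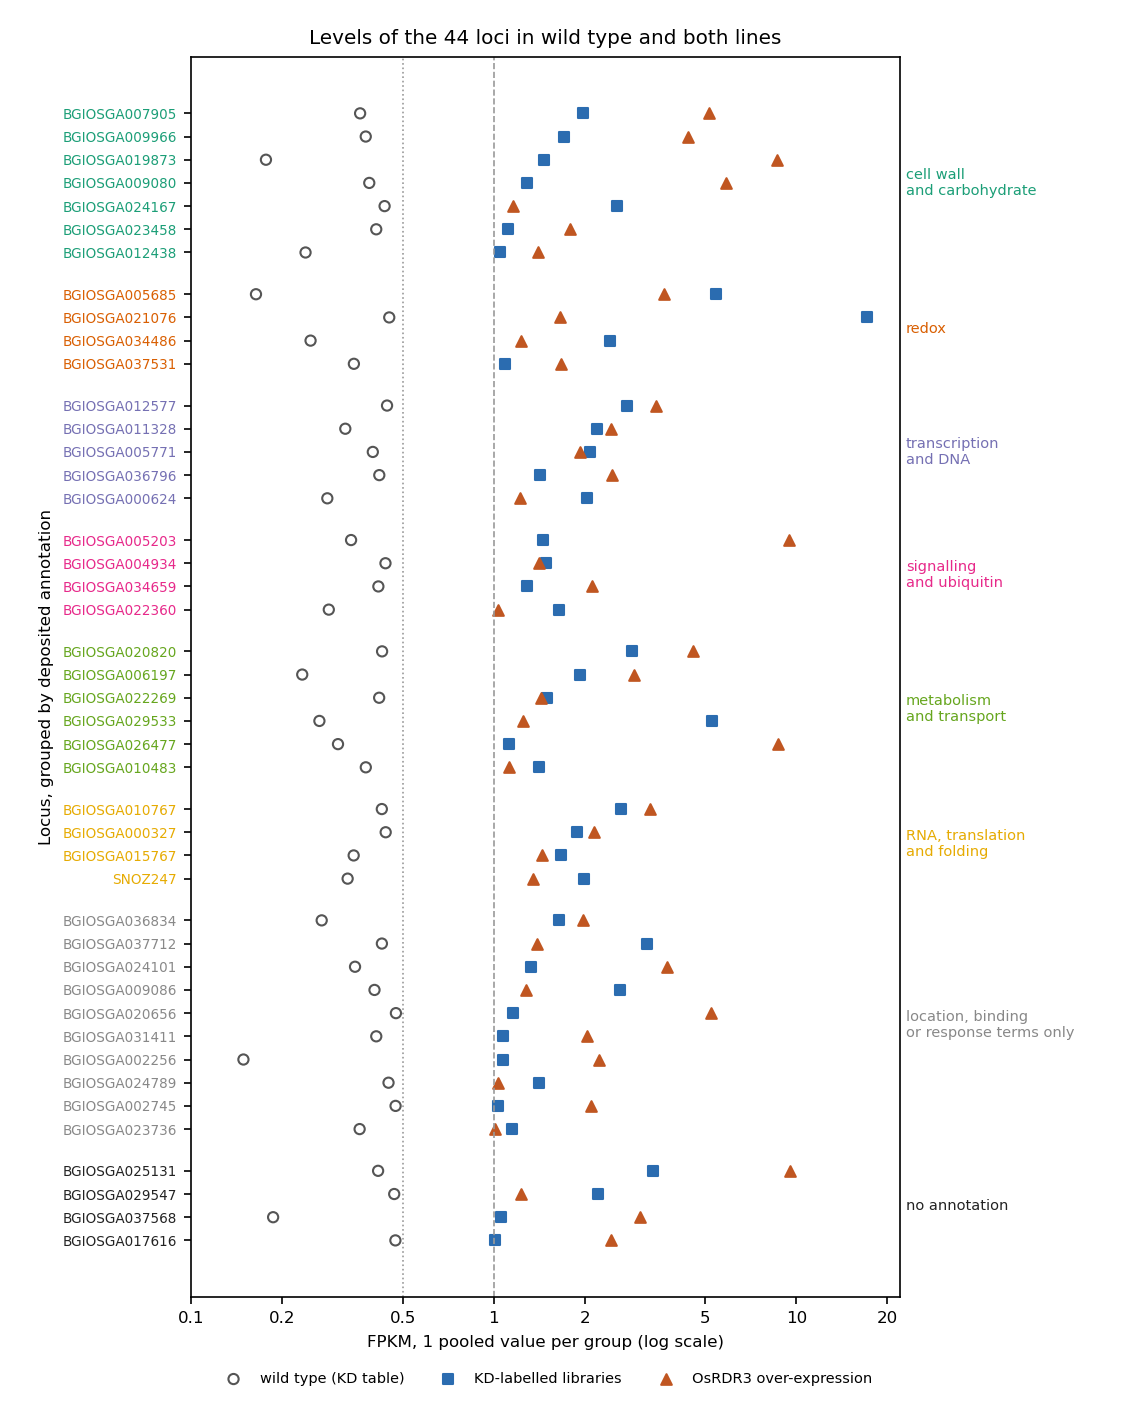
FPKM of each of the 44 loci on a log axis, 1 pooled value per group, with loci grouped by deposited annotation. Circles are wild type, squares the KD-labelled libraries and triangles over-expression, and the dotted and dashed lines mark the limits of 0.5 and 1 FPKM. Most squares and triangles lie between 1 and 5 FPKM, and the square at 17.1 FPKM is the peroxidase BGIOSGA021076.

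The cell wall and carbohydrate group was the largest with a specific annotation, with 7 loci, of which 5 carry an enzyme activity term. The chaperone locus BGIOSGA015767 also carries a cell wall term but was placed in the folding group. Of the 7 loci, 6 were called higher in the KD-labelled libraries and 6 in over-expression. Their median level was 1.46 FPKM in the former and 4.38 FPKM in the latter. The beta-hexosaminidase locus BGIOSGA019873, on chromosome 5 from 21512973 to 21517732, encodes an enzyme that removes N-acetylhexosamine sugars from glycans. It rose from 0.177 to 1.46 FPKM in the KD-labelled libraries and from 0.183 to 8.64 FPKM in over-expression, and the authors' deposited tables gave q = 0.0347 and 0.0141. Its 47.1-fold rise in over-expression was the highest fold of the 44 in that table. BGIOSGA007905, annotated with polygalacturonase activity, which cleaves pectin, rose from 0.361 to 1.97 FPKM and, in over-expression, from 0.377 to 5.13 FPKM.

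BGIOSGA009966, whose terms name beta-glucosidase activities, rose from 0.377 to 1.70 FPKM in the KD-labelled libraries and from 0.394 to 4.38 FPKM in over-expression. The glycosyl hydrolase BGIOSGA023458 of the cell wall and apoplast rose to 1.12 and 1.78 FPKM. BGIOSGA012438, annotated with cellulose microfibril organization, rose to 1.05 and 1.40 FPKM. A pair of loci passed in 1 table each. The cell wall locus BGIOSGA009080, annotated as responding to the steroid hormone brassinosteroid, rose from 0.403 to 5.85 FPKM in over-expression and stood at 1.29 FPKM in the KD-labelled libraries, with q = 0.149 in the authors' deposited table. The glycosyl hydrolase BGIOSGA024167 showed the reverse order, rising from 0.436 to 2.55 FPKM in the KD-labelled libraries and standing at 1.15 FPKM in over-expression with q = 0.138 in the authors' deposited table.

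The 4 redox enzymes were all called higher in the KD-labelled libraries, and 2 of them were called higher in over-expression. The peroxidase BGIOSGA021076, on chromosome 6 from 21416165 to 21417353, belongs to the heme enzymes that oxidise substrates with hydrogen peroxide. It rose from 0.451 to 17.1 FPKM in the KD-labelled libraries, 37.8-fold, which was the highest level and fold of the 44 in that table, with q = 0.000868 there in the authors' deposited values. In over-expression it stood at 1.65 against 0.471 FPKM, where the authors' deposited table gives q = 0.102. BGIOSGA005685, an oxidoreductase acting on aldehyde or oxo groups, was high in both lines. It rose from 0.164 to 5.44 FPKM in the KD-labelled libraries and from 0.170 to 3.66 FPKM in over-expression, log2 fold changes that the authors' deposited tables give as 5.05 and 4.42, and no other member had as high a level or fold in its lower line.

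The heme monooxygenase BGIOSGA034486, whose terms are those of cytochromes P450, rose from 0.248 to 2.43 FPKM in the KD-labelled libraries and stood at 1.23 FPKM in over-expression (Cuffdiff q = 0.0548 in the authors' deposited table). The NADPH oxidase BGIOSGA037531, a calcium-binding membrane enzyme class that makes superoxide, rose to 1.09 and 1.66 FPKM from 0.345 and 0.360 FPKM. Peroxidases and P450 enzymes form large families, and reads shared between close copies make single members uncertain.

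Transcription and DNA-binding loci numbered 5, of which 3 were called higher in the KD-labelled libraries and 2 in over-expression. Sequence-specific transcription factor activity was annotated for 4 of them. BGIOSGA012577 rose from 0.444 to 2.76 FPKM in the KD-labelled libraries and from 0.463 to 3.44 FPKM in over-expression. BGIOSGA005771, whose terms include positive regulation of flower development, rose from 0.398 to 2.08 FPKM in the KD-labelled libraries and stood at 1.92 FPKM in over-expression, with q = 0.0594 in the authors' deposited table. BGIOSGA000624 was also called in the KD-labelled libraries, at 2.04 FPKM, but not in over-expression, at 1.22 FPKM. BGIOSGA011328 had 2.19 and 2.44 FPKM and was called in neither, with q = 0.107 and 0.109 in the authors' deposited tables. BGIOSGA036796, annotated with chromatin binding, rose from 0.435 to 2.46 FPKM in over-expression and stood at 1.43 FPKM in the KD-labelled libraries.

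Of 4 signalling and ubiquitin loci, 3 were called higher in each line. The membrane protein kinase BGIOSGA005203, whose terms include response to bacterial molecules and stomatal complex morphogenesis, rose from 0.337 to 1.45 FPKM in the KD-labelled libraries. In over-expression it rose from 0.352 to 9.48 FPKM, 26.9-fold, and its q was the lowest listed in each of the authors' deposited tables, 0.000868 and 0.00105. The RING-type E3 ubiquitin transferase BGIOSGA004934, which attaches ubiquitin to target proteins, rose from 0.438 to 1.48 FPKM in the KD-labelled libraries and from 0.458 to 1.41 FPKM in over-expression. The second ubiquitin ligase locus, BGIOSGA022360, rose from 0.285 to 1.64 FPKM in the KD-labelled libraries and stood at 1.03 FPKM in over-expression. The protein phosphatase BGIOSGA034659 rose from 0.434 to 2.11 FPKM in over-expression and stood at 1.29 FPKM in the KD-labelled libraries.

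Metabolic enzymes and a transporter made up 6 loci, 3 of them called in each line. Pyruvate, phosphate dikinase (BGIOSGA010483), which makes phosphoenolpyruvate from pyruvate, rose from 0.377 to 1.41 FPKM in the KD-labelled libraries and from 0.394 to 1.12 FPKM in over-expression. BGIOSGA020820, an ester hydrolase of lipid metabolism, rose from 0.427 to 2.85 FPKM in the former and from 0.447 to 4.56 FPKM in the latter. The acyltransferase BGIOSGA026477 is annotated with synthesis of cutin, the polyester of the leaf cuticle. It rose from 0.318 to 8.69 FPKM in over-expression, 27.3-fold, and stood at 1.12 against 0.305 FPKM in the KD-labelled libraries, with q = 0.0668 in the authors' deposited table. The transmembrane transporter BGIOSGA029533 had the reverse order. It rose from 0.265 to 5.28 FPKM in the KD-labelled libraries, 19.9-fold, and stood at 1.25 against 0.276 FPKM in over-expression, with q = 0.0823 in the authors' deposited table. BGIOSGA006197, annotated with a ligase step of coenzyme A synthesis, had 1.92 and 2.90 FPKM and was called in neither, as was the acid phosphatase BGIOSGA022269 at 1.50 and 1.43 FPKM.

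The RNA, translation and folding group held 4 loci, of which the same 2 were called in both tables. The chaperone locus BGIOSGA015767, annotated with protein folding and defense and heat responses, rose from 0.344 to 1.66 FPKM in the KD-labelled libraries and from 0.360 to 1.45 FPKM in over-expression. The locus listed as SNOZ247 rose to 1.99 and 1.35 FPKM, and its q of 0.0493 in the authors' deposited over-expression table lies close to the threshold. SNOZ247 is a small nucleolar RNA name, while its nearest transcript, protein entry and zinc and nucleic acid binding terms belong to a protein-coding gene, so which of the 2 was measured is uncertain. The ribonuclease T2 BGIOSGA000327 had 1.88 and 2.14 FPKM and the ribosomal protein locus BGIOSGA010767 had 2.63 and 3.28 FPKM. Neither was called in either table.

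A further 10 loci carried only terms for a location, for binding or for a response, and 5 of them were called in each line. Their levels ran from 1.03 to 3.21 FPKM in the KD-labelled libraries and from 1.01 to 5.21 FPKM in over-expression. BGIOSGA037712, with a protein binding term, rose from 0.427 to 3.21 FPKM in the KD-labelled libraries. Its q of 0.000868 is the tied lowest value listed in the authors' deposited table. BGIOSGA020656 rose from 0.496 to 5.21 FPKM in over-expression and stood at 1.16 FPKM in the KD-labelled libraries. BGIOSGA002256 had the lowest wild-type level of the 44, at 0.149 FPKM, and rose from 0.155 to 2.23 FPKM in over-expression. BGIOSGA024101, of the plasma membrane, rose to 3.73 FPKM in over-expression, and BGIOSGA023736, annotated with response to auxin, rose to 1.15 FPKM in the KD-labelled libraries. BGIOSGA031411, whose terms name no function, was called in both lines, at 1.08 and 2.03 FPKM. BGIOSGA009086, with a zinc binding term, and BGIOSGA024789 rose to 2.60 and 1.41 FPKM in the KD-labelled libraries, and BGIOSGA002745, of the Golgi and endosome, rose to 2.09 FPKM in over-expression. BGIOSGA036834, a preprophase band and cell cortex protein, was called in neither, at 1.65 and 1.97 FPKM.

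The 4 loci without annotation included the highest level in over-expression. BGIOSGA025131, on chromosome 7 from 2204695 to 2205316, stood at 9.49 against 0.431 FPKM in over-expression and at 3.37 against 0.415 FPKM in the KD-labelled libraries. It was called in neither table, with q = 0.126 and 0.109 in the authors' deposited tables, and at 622 bp it was also the shortest of the 44. BGIOSGA017616 rose from 0.493 to 2.44 FPKM in over-expression and to 1.01 FPKM in the KD-labelled libraries. BGIOSGA029547 rose from 0.469 to 2.22 FPKM in the KD-labelled libraries and stood at 1.23 FPKM in over-expression. BGIOSGA037568 had 1.06 and 3.04 FPKM and was called in neither.

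Levels of the 2 lines were next set side by side. Each line's fold over its own wild-type value was used, so that the shared wild type cancels, and the ratio of the folds was a description with no test because the tables were normalized separately. The fold was higher in over-expression at 26 of the 44 loci, or 59.1%, beside 73.8% of all 1714 loci. The median log2 ratio was 0.26 for the 44 and 0.33 for all. Within 2-fold of each other lay 27 loci, while 11 were at least 2-fold higher in over-expression and 6 in the KD-labelled libraries. The extremes were BGIOSGA026477, the acyltransferase, at 2.89 on the log2 scale, BGIOSGA005203, the kinase, at 2.65, and BGIOSGA019873, the hexosaminidase, at 2.51. At the other end were the peroxidase BGIOSGA021076 at -3.43 and the transporter BGIOSGA029533 at -2.14. Of the 7 cell wall and carbohydrate loci 6 were higher in over-expression, and of the 4 redox loci 1 was.

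**Figure D2:**
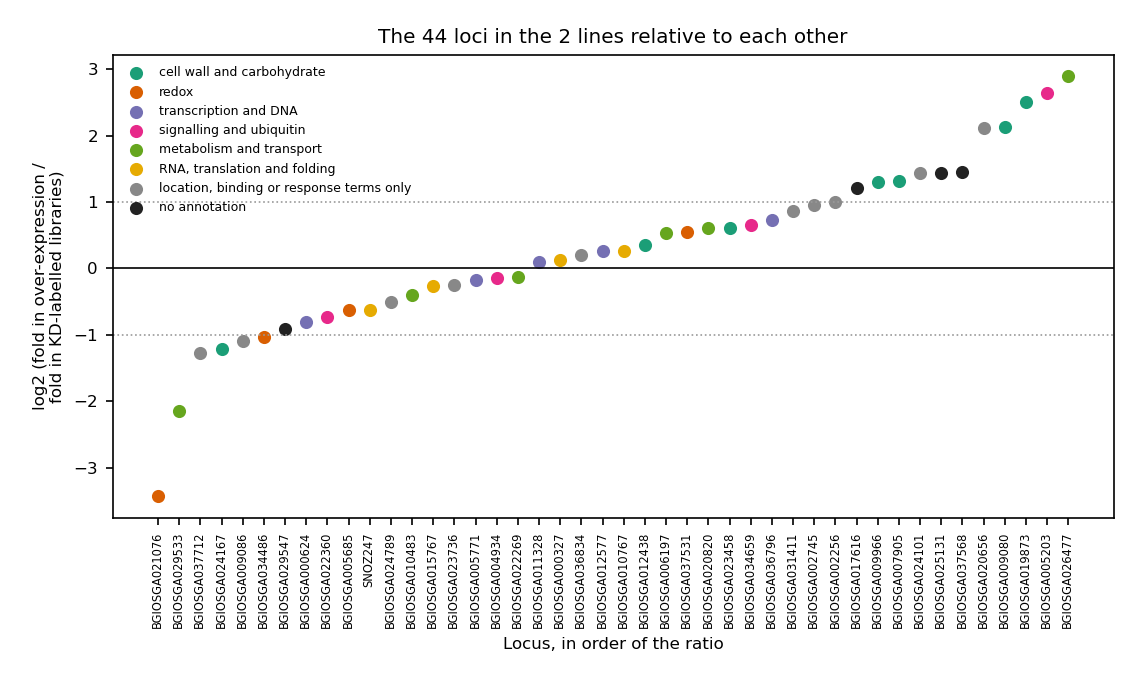
Log2 ratio of the fold in over-expression to the fold in the KD-labelled libraries, for each of the 44 loci in order of the ratio and coloured by annotation group. Dotted lines mark a 2-fold ratio either way, and 27 loci lie between them. The peroxidase BGIOSGA021076 is lowest at -3.43 and the acyltransferase BGIOSGA026477 highest at 2.89.

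Few loci had a specific protein name, although most had some annotation. A protein name other than uncharacterized was deposited for 4 of the 44 loci, or 9.09%, against 18.4% of the 1714 loci in both tables and 12.2% of the 98 loci low in wild type, which include the 44. At least 1 Gene Ontology term was present for 40 of the 44, or 90.9%, against 85.9% and 83.7%. The 13 word lists were matched to names and terms, and all percentages are descriptions without a test. Words for transcription factors matched 4 of the 44 loci, or 9.09%, against 2.28% of the 1714 and 4.08% of the 98. Ubiquitin words matched 2, the ligases BGIOSGA004934 and BGIOSGA022360, or 4.55% against 1.28% and 2.04%, and peroxidase words matched 2, BGIOSGA021076 and the NADPH oxidase BGIOSGA037531, or 4.55% against 1.46% and 2.04%. Hydrolase words matched 6 loci, or 13.6%, above the 12.0% of the 1714 but below the 16.3% of the 98. Zinc matched 2, SNOZ247 and BGIOSGA009086, or 4.55% against 3.85% and 2.04%, and P450 words matched 1, or 2.27% against 1.81% and 1.02%.

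The remaining lists, apart from transposons, matched a smaller share of the 44 than of the 1714. Kinase words matched 2, of which BGIOSGA010483 is the pyruvate enzyme and no protein kinase, or 4.55% against 8.17% and 11.2%. Transport words matched 1, or 2.27% against 6.42% and 3.06%, and defense words matched 1, the chaperone BGIOSGA015767, or 2.27% against 4.08% and 5.10%. Words for RNA silencing, immune receptors with ADP binding, and histones matched 0 of the 44, while 25, 32 and 17 of the 1714 loci and 1, 3 and 0 of the 98 carried them. The RNA silencing words include methyltransferase of any kind, so a match need not be a silencing gene. The 1714 and the 98 also include the polymerase BGIOSGA002194, which the rule leaves out of the 44. Transposon words matched 0 of the 44 and 0 of the 1714, so the tables name no transposon among the loci compared. The term plant-type cell wall, which is not among the word lists, was attached to 4 of the 44 loci, or 9.09%, and to 23 of the 1714, or 1.34%. Its share of the 98 is not given. Other terms had a smaller share of the 44, such as ATP binding, at 6.82% against 11.8%, and membrane, at 11.4% against 14.2%. At 4 loci or fewer per list, each share rests on a handful of genes, except for hydrolases.

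**Figure D3:**
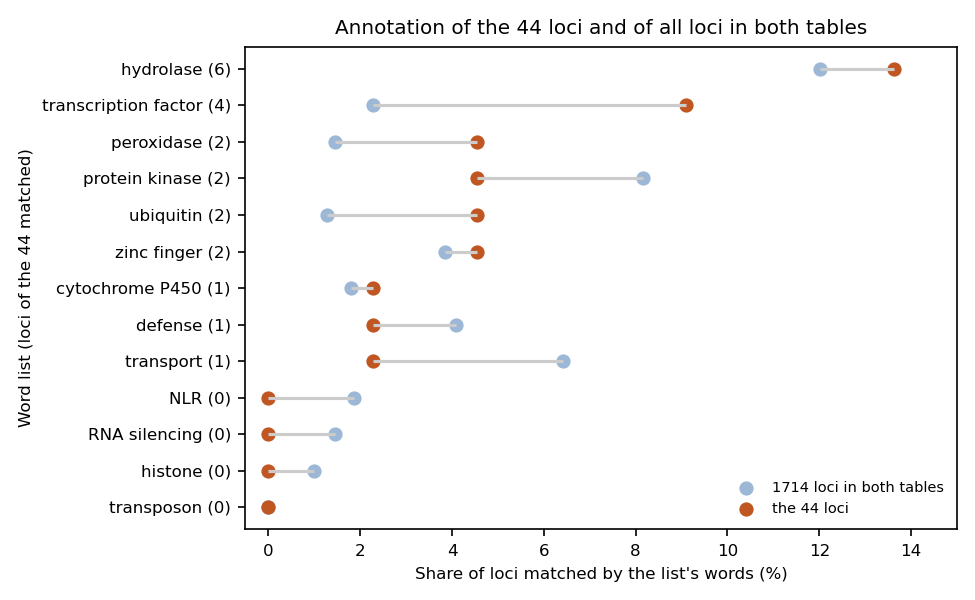
Share of loci, in percent, whose deposited names or terms matched each of 13 word lists, for the 44 loci and for the 1714 loci in both tables, with the number of the 44 in brackets. Transcription factor words show the widest gap, 9.09% against 2.28%, and 4 lists have none of the 44.

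The 44 loci were of ordinary span. The span is the genomic distance from start to end of the transcript model, introns included, and was 622 to 6578 bp with a median of 2644.5 bp and quartiles of 1829 and 3767 bp. The median was 2894 bp over the 1714 loci and 3170.5 bp over the 98 loci low in wild type. At most 1000 bp was spanned by 2 of the 44 loci, or 4.55%, against 11.4% of the 1714 and 2.04% of the 98. Over 10000 bp was spanned by 0 of the 44, 59 of the 1714 and 2 of the 98, and these differences were not tested. The longest was pyruvate, phosphate dikinase (BGIOSGA010483), on chromosome 3 from 20457309 to 20463886. Across the 44 loci, which are not independent replicates and whose FPKM is itself divided by transcript length, Spearman's rho between span and the lower of the 2 transgenic levels was -0.22. The authors' test called 11 and 10 of the 22 shorter loci and 17 and 14 of the 22 longer ones, in the KD-labelled libraries and in over-expression. Whether span had a part in which loci were called was not tested.

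**Figure D4:**
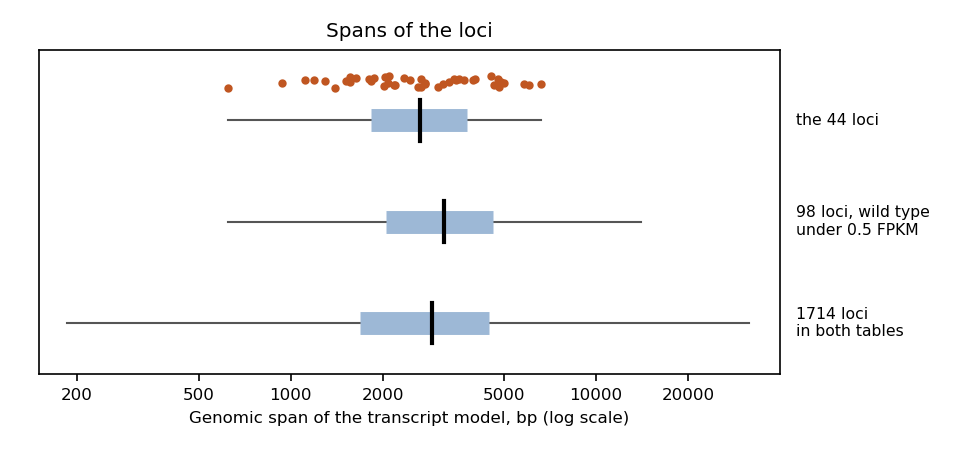
Genomic span of the transcript models in bp on a log axis for the 44 loci, the 98 loci listed in both tables with wild type under 0.5 FPKM, and the 1714 loci in both tables. Lines give the full range, boxes the quartiles, black ticks the medians of 2644.5, 3170.5 and 2894 bp, and dots the single loci of the 44, spread vertically to separate them.

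The loci were spread over the genome. All 44 lay on the 12 assembled chromosomes, while 20 of the 1714 loci lay on unplaced scaffolds; the genome build is not given in the sources used here. Chromosome 6 held 7 of the 44, or 15.9%, against 7.93% of the 1714, and chromosome 12 held 5, or 11.4%, against 4.38%. Chromosome 4 held 1, or 2.27%, against 9.51%. Chromosomes 1, 2 and 3 held 6 each, chromosome 7 held 5, chromosomes 5, 9 and 11 held 2 each, and chromosomes 8 and 10 held 1 each. The 6 loci on chromosome 1 share it with the polymerase BGIOSGA002194, and the nearest of them, BGIOSGA002256, lay 1.03 Mb away. Within 1 Mb of a chromosome start, or of the last listed locus of a chromosome, lay 5 of the 44, or 11.4%, against 8.26% of the 1714. They included the phosphatase BGIOSGA034659, starting at 129377 on chromosome 11, and the cortex protein BGIOSGA036834, starting at 116242 on chromosome 12.

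At a gap limit of 100 kb, 1 pair of the 44 loci was found. The closest pair was BGIOSGA009080 and BGIOSGA009086 on chromosome 2, with a gap of 90.2 kb and no other locus of the 1714 between them. These 2 loci differed in the lines, the first being 2.13 higher in over-expression on the log2 scale of the ratio and the second -1.09. The next pair, BGIOSGA029547 and BGIOSGA029533 on chromosome 9, had a gap of 110 kb with 1 of the 1714 loci between, and both were called in the KD-labelled libraries alone. The third, BGIOSGA012577 and BGIOSGA010767 on chromosome 3, had a gap of 334 kb. Next came BGIOSGA036834 with BGIOSGA036796, 366 kb apart on chromosome 12, and BGIOSGA023458 with BGIOSGA020656, 462 kb apart on chromosome 6. No 3 of the loci followed each other at gaps of up to 100 kb, and the median gap to the nearest other locus of the 44 was 1351 kb.

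Neighbours outside the 44 were also compared. The median gap to the nearest of the 1714 loci was 63.8 kb for the 44 and 58.9 kb for all. That nearest locus was above wild type in both lines for 20 of the 44, or 45.5%. Over the 1714 loci 37.8% were above wild type in both lines, and of those the nearest locus was so too in 43.3%. The 2 tables share wild type, so these shares are given as a description only.

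**Figure D5:**
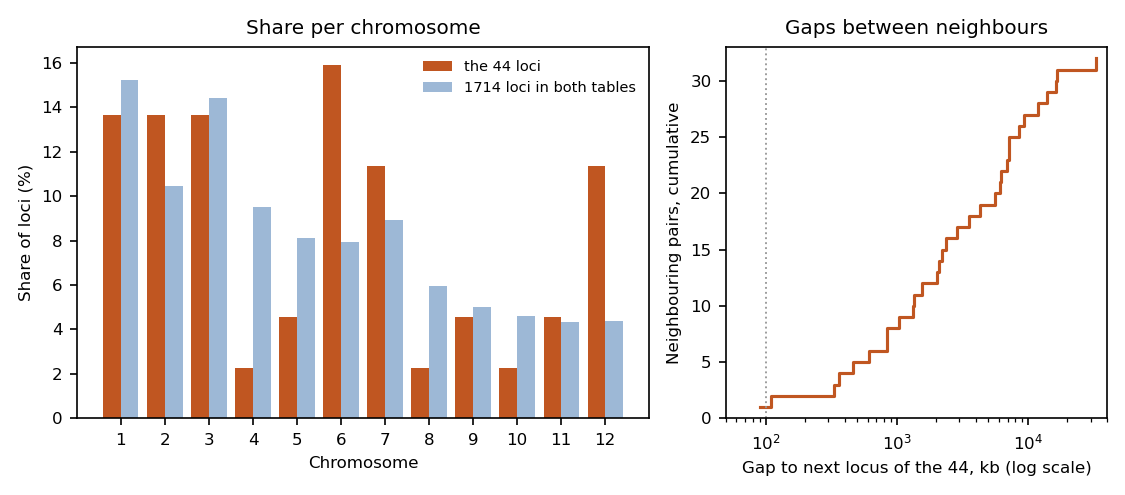
Left, share of the 44 loci and of the 1714 loci in both tables on each chromosome, in percent. Right, cumulative number of neighbouring pairs of the 44 by the gap between them in kb on a log axis, with a dotted line at 100 kb; 1 pair lies below it, at 90.2 kb.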

How the data were processed

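Total RNA of 6 seedling libraries was extracted with Trizol, per the labels' protocols. The authors used Cufflinks 2.2.1 and Cuffdiff, per the submitters' processing notes; for the aligner, the build and the Cuffdiff version nothing is stated. The 2 deposited tables each compare 1 line with wild type and hold, per the file headers, FPKM pooled per group, the log2 fold change of these values, p-values and q-values. All listed p-values are at most 0.05. The deposited log2 values were recomputed from the FPKM without a pseudocount and differed by at most 1.7e-05. No values were given per library, so no test was made on samples and no interval was computed.

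Tables were joined on the Cuffmerge transcript number with Python 3.11.15 and pandas 2.3.3, and the rule and the gap calculation were tested on simulated data. Calls use the authors' q, under 0.05. Gaps were taken between transcript ends. The members, the 13 word lists and the alternatives were chosen with earlier results of these data known, and the annotation groups and 2 added alternatives after their values were seen. Fixed rules named 27 members, namely those with a protein name, the 10 highest levels and 5 highest folds in the lower line, the 5 closest pairs, the loci at each limit and the longest and shortest; other members were named for their annotation after their values were seen. The reference gene table matched 0 member identifiers and was not used, and no sequence was analysed here.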

Additional observations from a re-analysis of the deposited data

How the results depend on the processing

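The number of loci depends on the limits of the rule. Against 44 loci, a wild-type limit of 0.25 left 6 and a limit of 1 gave 141, a transgenic minimum of 0.5 gave 96 and one of 2 left 6. Joining on the nearest transcript gave the same 44 loci. Of 2 alternatives chosen after seeing the data, requiring q under 0.05 in both tables left 16 and putting wild type on 1 scale gave 50. At q under 0.01, 16 loci were called in the KD-labelled libraries and 11 in over-expression, in place of 28 and 24, and with a transgenic minimum of 2 these were 3 and 3. The median log2 fold change of 2.33 in the KD-labelled libraries became 2.02 and 0.99 with pseudocounts of 0.1 and 1, and 2.91 after centring on all listed loci. That of 2.27 in over-expression became 2.03, 1.10 and 1.60. Loci with another nearby numbered 2 at 100 kb, 0 at 50 kb and 4 at 200 kb. The median span of 2644.5 bp was 2639 bp with a wild-type limit of 1 and 2609.5 bp with a transgenic minimum of 2, and loci with a protein name went from 4 to 17 and 0. No fit was repeated, so each change follows from the setting itself, namely its limit, threshold, join, scale, pseudocount, centre or gap. No paired analysis was possible because the deposited values are pooled per group, and no replicate could be left out for the same reason. Depth is unknown, so how many fragments stand behind a value under 0.5 FPKM cannot be given.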

Other observations

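Few loci had the opposite pattern. Loci at 1 FPKM or more in wild type in both tables and under 0.5 FPKM in both lines numbered 6, or 0.35% of the 1714 loci. Among them the glycosyltransferase locus BGIOSGA004012 fell from 1.61 to 0.193 FPKM in the KD-labelled libraries and from 1.68 to 0.475 FPKM in over-expression. BGIOSGA015664, on chromosome 4 with a span of 13343 bp, fell from 1.70 to 0.383 FPKM and from 1.78 to 0.398 FPKM, and BGIOSGA014291 fell from 1.03 to 0.155 FPKM and from 1.08 to 0.330 FPKM. The other 3 were called in neither table, of which BGIOSGA025835 had the highest wild-type level, 2.67 FPKM, against 0.379 FPKM in the KD-labelled libraries. The first 3 named were called by Cuffdiff at q under 0.05 in both of the authors' deposited tables. All 6 were below wild type in both lines, as their selection requires.

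The lines differed in how the counts stood in each table alone. In the table of the over-expression line, 277 loci were under 0.5 FPKM in wild type and at 1 FPKM or more in the line, and 16 went the other way. In the KD table the numbers were 163 and 107. Over all listed loci, 2912 were higher and 1383 lower than wild type in the over-expression table, against 1517 and 2824 in the KD table. The 44 loci made up 15.9% of the 277 and 27.0% of the 163. These are counts of listed loci, and the difference between the tables was not tested.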
